A study of Arabidopsis thaliana with 2 samples.

Results

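Brassinosteroids are steroid hormones of plants that promote cell elongation. They bind outside the cell to the leucine-rich repeat receptor kinase BRI1 or some of its relatives, which act with the co-receptor kinase BAK1. Hormone level is set by synthesis enzymes such as DWF4, CPD and DET2 and by inactivating enzymes such as BAS1 and SOB7. High hormone represses the synthesis genes and raises inactivation, so some genes that set the hormone level are also targets of its signal. IBH1 is an atypical basic helix-loop-helix protein that counteracts growth-promoting members of its family in this pathway.

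Here the chromatin occupancy of IBH1 was read at 10 loci of the hormone's perception, synthesis and inactivation: BRI1, BRL1, BRL2, BRL3, BAK1, DWF4, CPD, DET2, BAS1 and SOB7. They were picked by locus for their role in the pathway, with earlier results of these data known but with no measured value in the rule, out of 27444 nuclear protein-coding genes. The study precipitated chromatin with an antibody against GFP from whole Arabidopsis thaliana seedlings of ecotype Col-0, aged 10 days and grown without treatment at 22 °C with 16 h of light. The first group carried p35S::IBH1-GFP (IBH1OE) and the other p35S::GFP (GFP OE). Both transgenes are driven by the strong viral 35S promoter, which is active in most tissues, so occupancy was measured with IBH1 made above and outside its own expression. Each group is 1 library, made from the pooled DNA of 3 ChIP experiments, so no value has a replicate error and no test between the lines could be made. The labels conflict on the tagged protein, since the sample title reads IBL1 (a relative) where the line and the series' design give IBH1.

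The deposited list holds 2945 peaks and is read as IBH1-GFP occupancy, although it names neither library. Values of the GFP library at these loci were not analysed here. Each peak has a score, which the peak caller MACS takes from its p-value (lowest 50.01, median 72.8, highest 1045.71), and a summit height in stacked fragments (lowest 14, median 27, highest 100). Peaks below the lowest score are not listed, so a locus without a peak was not detectable at that limit, and the depth of the libraries is unknown. A summit is called in reach of a gene when it lies inside the gene bounds or within 1000 bp of either end. The annotation used has no strand, so sides are given as lower or higher coordinates and not as upstream or downstream.

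A summit was in reach of 2 of the 10 genes, BAS1 and BRL1, against 12.7% of all protein-coding genes. With so few genes the difference between these shares cannot be read as a property of the set. By role, these were 1 of 4 genes of BRI1 and its relatives and 1 of 2 inactivation genes. The co-receptor gene BAK1 and the 3 synthesis genes were not among them. BAS1 alone held a summit inside its bounds, against 7.05% of all genes. BAS1 and BRL1 were also the 2 genes that a peak interval touched, against 10.2% of all genes. Counting peak intervals within 1000 bp in place of summits added BRI1, giving 3 of 10 genes, against 14.7% of all genes. The same 3 genes had a summit within 2000 bp, against 16.7% of all genes. Within 500 bp the 2 genes were those first named, against 10.6%. Among peaks that scored 100 or more, BAS1 alone had a summit in reach, against 3.38% of all genes.

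**Figure D1:**
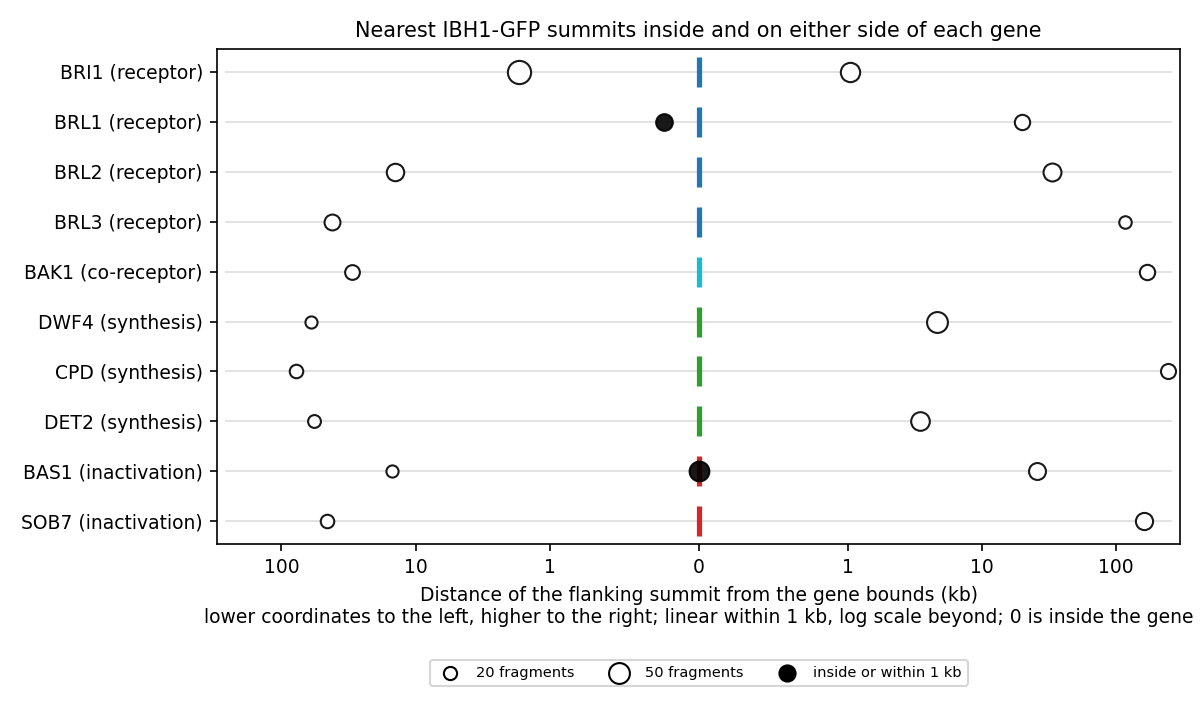
Each row is 1 gene, and circles mark the summit inside it and the nearest summit on either side, by distance from the gene bounds in kb (linear within 1 kb, log scale beyond). Circle area follows summit height in fragments and filled circles are in reach. Only BAS1 and BRL1 have a filled circle, BRI1 has circles close by on both sides, and CPD has the widest empty stretch.

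Among the receptors, BRI1 (AT4G39400), the main brassinosteroid receptor, had no summit in reach but was bordered by peaks on both sides. On the side of higher coordinates the summit lay 1049 bp from the gene, just outside the limit of 1000 bp, and the edge of its peak (chr4:18329007-18330221, TAIR9) was 176 bp away. That peak scored 90.43, its summit was 43 fragments high, and both values are above the medians of the list. Its nearest protein-coding gene was PLS (AT4G39403), which encodes the POLARIS peptide of root growth, at 181 bp. The summit itself lay within AT4G39404, annotated as a noncoding RNA.

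The peak on the other side of BRI1, at chr4:18322303-18323111, had its summit 1705 bp from the gene. The summit was 62 fragments high, the 51st tallest of the 2945, while its score of 68.3 ranked 1672nd, below the median. BRI1 was the nearest protein-coding gene of that summit. The stretch between the flanking summits was 7128 bp. A gene without a summit inside and with summits within 2000 bp on both sides was uncommon: 102 of 27444 genes (0.372%) were placed this way, a pattern looked for only after the positions at BRI1 were seen.

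The 3 BRI1-like genes differed from one another. BRL1 (AT1G55610), a receptor of vascular tissue, had a summit at 235 bp on the side of lower coordinates, and the peak (chr1:20778881-20779694) reached 202 of its 814 bp into the gene. Its score of 53.29 ranked 2627th of 2945, near the lowest deposited value, and the summit was 32 fragments high. BRL1 was the only protein-coding gene in reach of that summit, the next being WRKY10 at 2964 bp. For BRL2 (AT2G01950, also VH1), which acts in vein patterning, the nearest summit was 14342 bp away inside AT2G01920, 35 fragments high and scoring 51.76. BRL3 (AT3G13380), the other vascular brassinosteroid receptor, was 42095 bp from its nearest summit, which lay inside VCS (AT3G13300), a gene of messenger RNA decapping, and scored 88.64. The order from nearest to farthest was BRL1, BRI1, BRL2 and BRL3.

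BAK1 (AT4G33430), the kinase that pairs with BRI1 when the hormone is bound, had its nearest summit 29957 bp away. That peak scored 59.47 with a height of 25 fragments, and lay where the bounds of ADR1-L1 (AT4G33300), an immune receptor gene, and AT4G33310 overlap. On the other side of BAK1 the next summit was 170149 bp away. Of all genes, 71.4% had a nearer summit than BAK1.

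**Figure D2:**
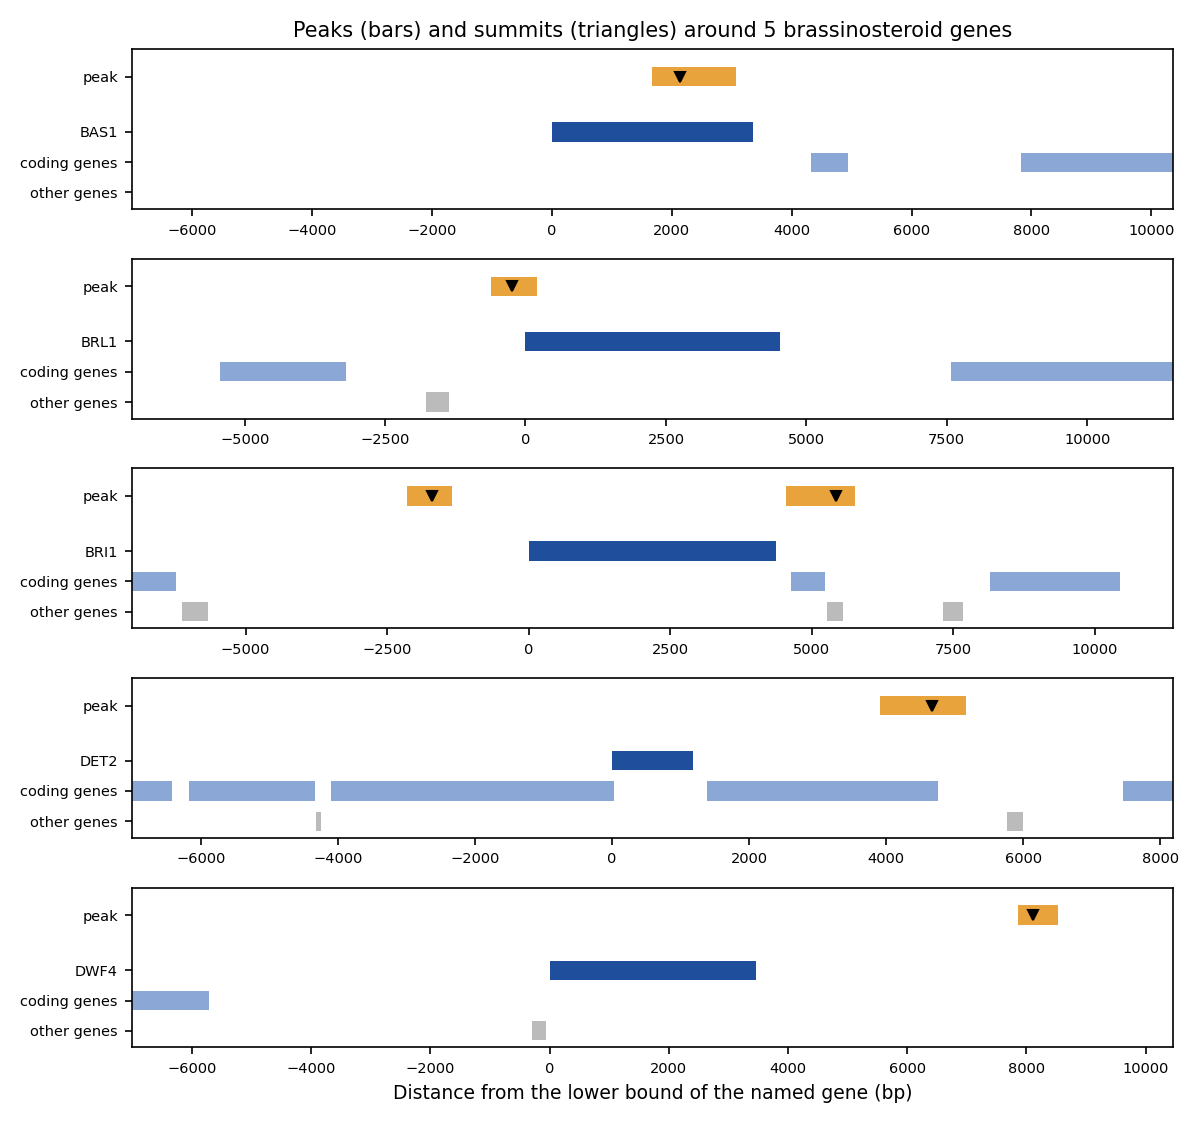
Peaks (orange bars) with their summits (triangles), the named gene (dark blue), other protein-coding genes (light blue) and other annotated genes (grey) around BAS1, BRL1, BRI1, DET2 and DWF4. The axis is the distance in bp from the lower bound of the named gene. The BAS1 peak lies wholly inside the gene, that of BRL1 crosses one end, and BRI1 stands between a pair of peaks.

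None of the 3 synthesis genes had a summit in reach, against 12.7% of all genes, and 3 genes are too few to show a difference. They fell into a near pair and a far gene. DET2 (AT2G38050), a steroid reductase early in the pathway, had a summit 3494 bp away on the side of higher coordinates. That summit lay inside the neighbouring gene PHT4;2 (AT2G38060), a phosphate transporter gene. AT2G38070, at 2776 bp, was also nearer to it than DET2. The peak of this summit, chr2:15925055-15926297, scored 99.29 with a height of 40 fragments. DWF4 (AT3G50660), the cytochrome P450 of the rate-limiting hydroxylation, had a summit 4656 bp away, between DWF4 and U1-70K (AT3G50670), which was 4099 bp from it. This peak, chr3:18821805-18822482, scored 99.03, and its height of 50 fragments was the tallest among the nearest summits of the 10 genes. It was 1 of 281 nuclear peaks (9.54% of 2944) with no protein-coding gene in reach. DET2 and DWF4 thus lay closer to a summit than most genes did, since 22.5% and 26.5% of all genes had a nearer one.

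CPD (AT5G05690), another cytochrome P450 of the synthesis pathway, was the farthest of the 10 from any summit. The nearest lay 78208 bp away inside SYN1 (AT5G05490), a meiotic cohesin gene, 21 fragments high and scoring 53.62. The next on the other side was 245438 bp away, so 327954 bp around CPD held no listed summit, and 5.36% of all genes lay in a stretch at least as long. It was the only one of the 10 without a summit within 50 kb, which was true of 15.5% of all genes.

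The inactivation genes differed, with a summit inside BAS1 and none near SOB7. BAS1 (AT2G26710), the cytochrome P450 that hydroxylates and so inactivates brassinosteroids, contained the whole of its peak, 1412 bp at chr2:11382128-11383539. The summit lay 2143 bp from the lower and 1215 bp from the higher end of the gene, and no other protein-coding gene was in reach of it, the next being AT2G26720 at 2176 bp. The score of 109.7 ranked 576th and the height of 45 fragments 282nd of 2945. It was the highest score among the nearest peaks of the 10 genes and the only one above 100. SOB7 (AT1G17060, listed as CYP72C1), a related P450 that also lowers active brassinosteroids, was 45733 bp from its nearest summit, which lay 196 bp from AT1G16916 with 21 fragments at a score of 62.13. Of the 4 genes here that encode cytochrome P450 enzymes (DWF4, CPD, BAS1 and SOB7), BAS1 was the 1 with a summit in reach, against 12.7% of all genes.

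**Figure D3:**
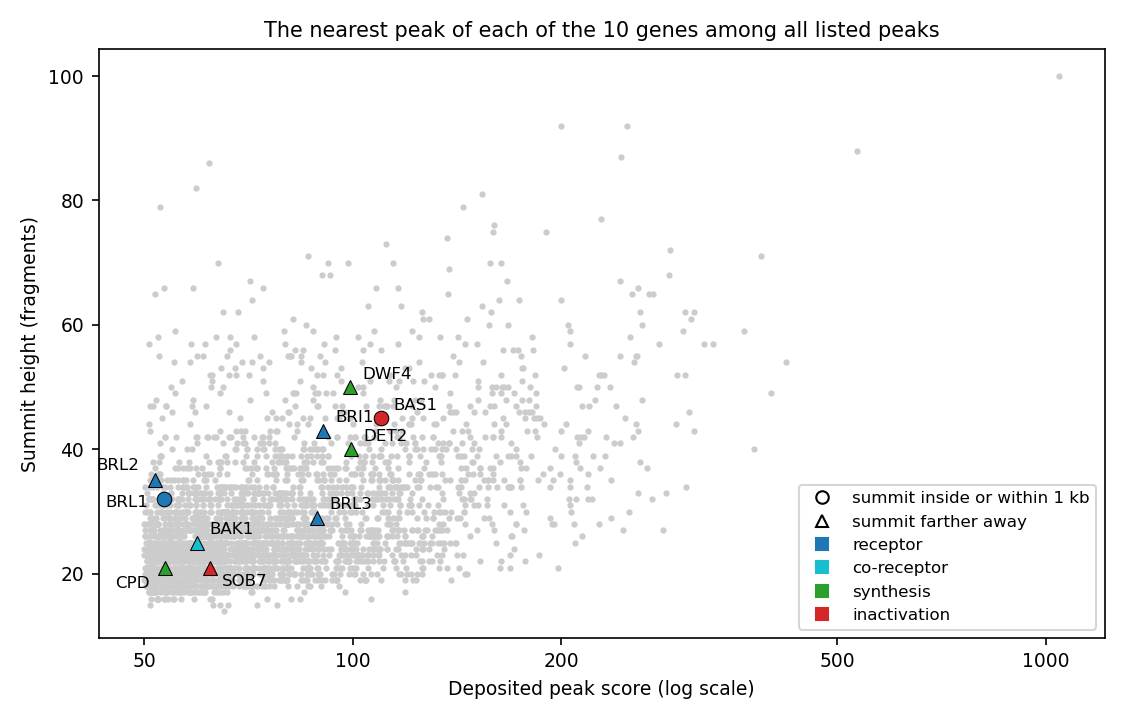
Score (log scale) against summit height in fragments for all 2945 listed peaks (grey) and for the nearest peak of each of the 10 genes (circles in reach, triangles farther away, colours by role). The peak in BAS1, at 109.7 and 45 fragments, stands above the median of both values, while that of BRL1 lies near the lowest score.

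Over the 10 genes the distance to the nearest summit ranged from 0 bp at BAS1 to 78208 bp at CPD, with a median of 9499 bp, against a median of 13766 bp over all genes (quartiles 4194 and 34275.5 bp). A summit lay within 5 kb of 5 of the 10 genes, against 27.7% of all genes, and within 50 kb of 9 of them, against 84.5%. Within 10 kb and 20 kb the counts were 5 and 6, against 41.9% and 60.3%. With 10 genes, neither the medians nor these shares can be read as a property of the set. The 10 nearest summits were 10 different ones, with scores from 51.76 to 109.7 and a median of 75.4, close to the median of the whole list. Of these summits, 2 had the gene itself as their nearest protein-coding gene (BAS1 and BRL1), and 5 lay inside another protein-coding gene. Of all listed summits, between 65.2% and 70.3% on each nuclear chromosome lay inside a protein-coding gene. Within 50 kb the 10 genes had 0 to 4 summits (median 1.5), against a median of 2 over all genes (quartiles 1 and 4). Within 500 kb they had 8 to 35 (median 17.5), against a median of 22 (quartiles 15 and 34). SOB7 and CPD had the fewest within 500 kb, 8 and 10, and BRL2 the most.

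**Figure D4:**
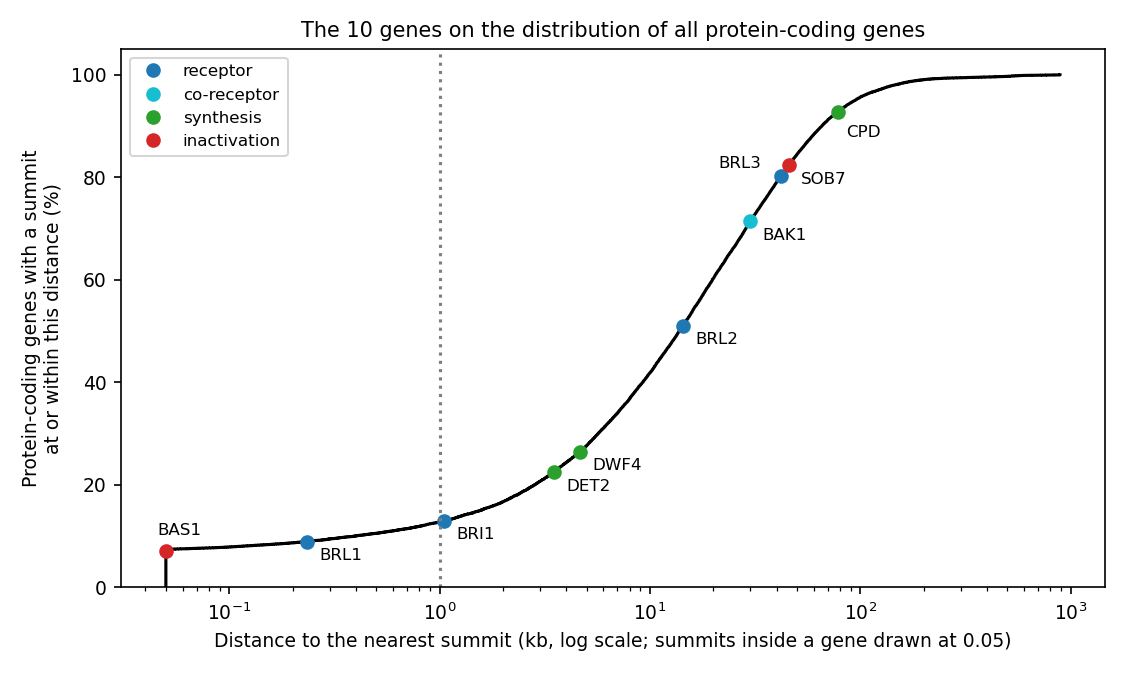
The curve gives the percentage of all 27444 protein-coding genes with a summit at or within a distance in kb (log scale, summits inside a gene drawn at 0.05 kb), and points place the 10 genes on it. The dotted line marks 1 kb. The genes spread over most of the curve, from BAS1 at its start to CPD near its top.

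The wider pathway was read in the same way. Of 38 other genes of brassinosteroid perception, signalling, synthesis and inactivation, 8 had a summit in reach (21.1%), 5 of them inside the gene, against 12.7% and 7.05% of all genes. Among peaks at or above the median score, 5 of the 38 had one in reach (13.2%), against 6.7% of all genes. The 38 were chosen with earlier results of these data known, so these differences cannot be read as a property of the pathway. Their median distance to the nearest summit was 7457 bp. Beside BAK1, 1 of 4 related co-receptor genes had a summit in reach, against 12.7% of all genes. This was SERK4 (AT2G13790, also BKK1), a BAK1 relative that overlaps with it in function. SERK4 held 2 summits, with scores of 202.06 and 97.39 and heights of 53 and 24 fragments. The first, chr2:5741232-5742185, ranked 97th of 2945 by score. SERK5, the neighbour of SERK4, was 7901 bp from the second of these summits, its own nearest.

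Of 17 signalling genes, 4 had a summit in reach, against 12.7% of all genes. The BIN2-like kinase gene BIL1 (AT2G30980, SKdZeta in the table) contained a summit 32 fragments high. The summit 840 bp from BIN2 (AT4G18710), the GSK3-like kinase that opposes the hormone's signal, was 39 fragments high. It was nearer to RPL16B, a ribosomal protein gene, at 95 bp, and lay within AT4G18725, annotated as a tRNA gene. AT4G18720 was as near to it as BIN2, at 840 bp. BEH3 (AT4G18890) and BEH4 (AT1G78700), relatives of the transcription factor BZR1, each had a summit 42 fragments high, at 330 bp and 292 bp, with scores of 69.52 and 53.54. Their heights were well above the median while their scores were below it.

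Of 12 other synthesis genes, 2 held a summit inside their bounds, against 7.05% of all genes. Both act in sterol synthesis. The listed genes SMT1, FK, HYD1, DWF1, DWF7 and DWF5, also of sterol synthesis, had no summit in reach. Their nearest summits lay between 3921 bp (SMT1) and 42574 bp (DWF5) away. The remaining synthesis genes, ROT3, CYP90D1, CYP85A1 and CYP85A2, had none in reach either. Their nearest summits were from 1643 bp (CYP90D1) to 37934 bp (ROT3) away. SMT2 (AT1G20330), a sterol methyltransferase gene, had a peak at chr1:7038784-7040011 that scored 125.93 and was 21 fragments high. CYP51G1 (AT1G11680), the sterol demethylase gene, had one at chr1:3939473-3940408 that scored 81.57 and was 25 fragments high. Both summits were shorter than the median of the list. Of 5 other inactivation genes, 1 held a summit inside its bounds, against 7.05% of all genes. This was BEN1 (AT2G45400), which encodes a reductase-like enzyme that lowers brassinosteroids. The summit in BEN1 had 25 fragments, and its score, 52.1, was near the lowest listed.

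**Figure D5:**
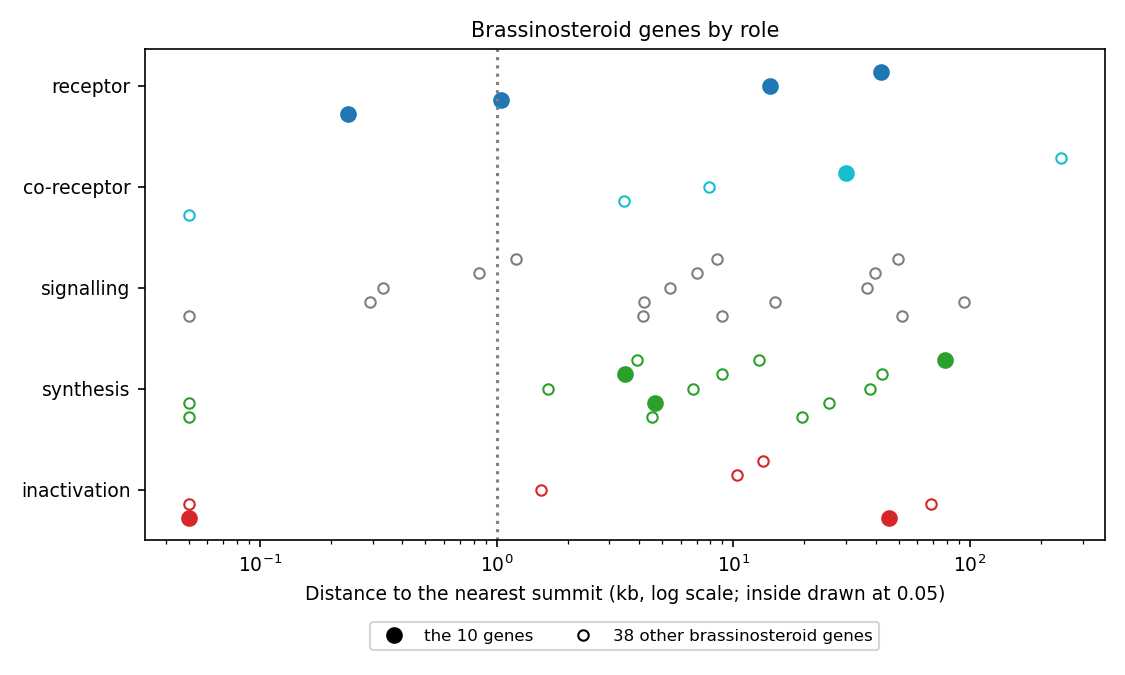
Distance to the nearest summit in kb (log scale, inside drawn at 0.05 kb) for the 10 genes (filled) and 38 other brassinosteroid genes (open), by role, with a dotted line at 1 kb and vertical offsets only to separate points. Genes to the left of the line are BRL1 and BAS1 among the 10 and 8 of the others, and every role spans short and long distances.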

How the data were processed

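ChIP-seq peaks of 1 IBH1-GFP and 1 GFP library were analysed. The submitters' processing notes list MACS, Bowtie and CASAVA 1.8.2, with TAIR9 as genome build, and libraries had 18 PCR cycles per the labels' protocols. Neither the settings nor the role of the GFP library in peak calling is stated there. The authors deposited a score per peak, which MACS writes as 10 times the −log10 of its p-value, and a signal per summit, the height of the fragment pileup. Both rank peaks within this list only.

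Peak starts were converted to count from 1. Names and gene bounds came from a RefSeq table of TAIR10.1, in which all 48 listed genes matched. Its nuclear sequence is taken to equal TAIR9. As a check, all summits were shifted by up to 5000 bp in either direction in steps of 100 bp. Summits fell inside genes most often without a shift on chromosomes 2, 4 and 5. On chromosomes 1 and 3 this was at -100 bp (70.2%, against 68.4% unshifted) and -200 bp (69.0%, against 65.8%). Every coordinate printed is the authors'. Distances run from the summit to the gene bounds. The distance code was tested on 200 simulated summits. Python 3.11.15, numpy 2.4.6 and pandas 2.3.3 were used.

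Genes, lists and comparisons were chosen with earlier results of these data known. Named are the 10 genes, other listed genes with a summit in reach, some listed genes without one, and the genes nearest to the summits described. Planned motif searches and protein comparisons were not made, as no sequence was used here. Alternatives changed the score limit, window, reference point, overlap and assignment of shared summits.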

Additional observations from a re-analysis of the deposited data

How the results depend on the processing

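The 2 genes with a summit in reach, BAS1 and BRL1, were found also with a window of 500 bp, against 10.6% of all genes. They were again the 2 found when a summit counted only for its nearest gene, against 9.26%. BAS1 was counted under each of the 8 alternatives, which followed from its peak lying wholly inside the gene and scoring above 100. BRI1 joined BAS1 and BRL1, making 3 of 10, with a window of 2000 bp, against 16.7% of all genes. The same 3 were counted with peak midpoints (783 bp from BRI1), against 12.8%, and with peak intervals, against 14.7%. BRL1 was lost, leaving 1 of 10, when peaks had to score at least 100, when they had to reach the median score, and when summits had to lie inside the gene. Under these 3 settings the other brassinosteroid genes numbered 3, 5 and 5 of 38 in place of 8. All protein-coding genes numbered 927, 1840 and 1934 in place of 3499, with fewer peaks or a narrower window by construction. These were 3.38%, 6.7% and 7.05% of all genes, in place of 12.7%. The median distance of the 10 genes, 9499 bp, became 228075.5 bp for peaks scoring at least 100 and 21893 bp for those from the median up. The peaks nearest to DET2 and DWF4 missed the score limit by under 1. The 2 genes touched by a peak compare with 10.2% of all genes. They became 1, BAS1, when at least 50% of the peak had to lie in the gene, and 1 at the score limit of 100. Shares of all genes under these last settings are not given here. No paired analysis was possible because the lines have 1 library each. Peaks scoring below 50.01 are not listed and the depth is unknown, so weaker occupancy at the other loci cannot be told from none.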

Other observations

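Further brassinosteroid genes without a summit in reach are named here after their values were seen. The summit nearest to SMT1 (AT5G13710), a sterol methyltransferase early in plant sterol synthesis, was 3921 bp away, scored 285.66 (21st of 2945) and was 68 fragments high (27th), the strongest peak that was nearest to any of the 48 genes. It lay 344 bp from SIG4 (AT5G13730), a plastid sigma factor gene. CYP90D1 (AT3G13730), a P450 of the late synthesis steps, was 1643 bp from a summit with a score of 125.13 that lay inside PRA8. BIA1 (AT4G15400), an acyltransferase-like inactivation gene, was 1545 bp from a summit with a score of 127.8 inside PUX5 (AT4G15410). BSL1 (AT4G03080), a phosphatase of the signalling chain, was 1203 bp from a summit with a score of 62.38 inside AT4G03090, in a crowded region with 12 summits within 50 kb. BRI1 was the only one of the 48 genes with summits within 2000 bp on both sides and none inside, against 0.372% of all genes. That pattern was defined after the positions at BRI1 were seen, so it does not set BRI1 apart. SERK1 (AT1G71830), a relative of BAK1, was the most remote, 243299 bp from any summit.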
